A study of Mus musculus with 8 samples.

Results

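Zfp949 is a zinc finger gene whose read count was higher in subcutaneous fat libraries labelled as lacking protein kinase D1 in adipocytes than in control libraries. It was described here beside every gene of the count table whose symbol runs from Zfp900 to Zfp999 with no further letter, which gave 31 of 18022 genes. Zfp949 was picked for attention by its own difference between the labels in these libraries, so its difference is given as a description with no test. The other 30 genes were selected by symbol alone, and such numbers follow the order in which genes were named, not a shared function. Of the 31 genes, 22 had enough reads to enter the comparison across genes and 9 did not.

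The libraries were made from poly(A) RNA of mouse subcutaneous adipose tissue, 1 library for each mouse. There were 4 libraries labelled WT, from mice carrying the floxed allele Pkd1(flox/flox), and 4 labelled KO, from mice labelled Pkd1adipo delta/delta. Both groups were on C57BL/6J (back-crossed 4x), and the labels name neither the Cre line that drove the deletion nor the age or sex of the mice. Pkd1 here stands for protein kinase D1, a serine/threonine kinase whose gene symbol is Prkd1.

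Most mouse genes of this naming series encode Krüppel-type zinc finger proteins. Their C2H2 fingers, each a short loop held by a zinc ion, bind DNA in a row, and an amino-terminal KRAB domain recruits Trim28 (also called KAP1) with the histone methyltransferase Setdb1 to silence chromatin. Many such proteins bind retroviral and other repeated sequences. The family grew by repeated duplication in rodents, so that many members sit in clusters and share near-identical stretches.

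Depth ran from 2617755 to 2873457 reads per library. Levels are given as CPM, which is reads scaled to a common total over the tested genes by the TMM method. Prkd1 was checked first, because it is the gene the labels describe as deleted. The libraries WT1 to WT4 gave it 88, 72, 94 and 73 reads, and KO1 to KO4 gave it 71, 108, 84 and 94. The labels overlapped, at 30.3 ± 3.22 against 31.6 ± 4.71 CPM (SD, n = 4 each), with a log2 difference of 0.06 ± 0.15 (SE) and a 95% interval from -0.26 to 0.39. Prkd1 was therefore not lower in the libraries labelled KO, so every direction below compares labels. Reads outside a deleted exon and reads from cells other than adipocytes would still be counted, and their share was not tested. The 12 adipocyte markers summed to between 23170 and 26680 CPM in the libraries labelled WT and between 24020 and 26840 in those labelled KO, which overlapped. In bulk tissue, fewer cells of a type and less RNA per cell cannot be told apart.

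The predicted proteins of the 31 genes were mostly of one design. A protein could be translated from the GENCODE M21 annotation for 30 of them, and 27 of these held a match to the KRAB pattern. Zfp934, Zfp956 and Zfp957 had none. The number of C2H2 finger matches ran from 0 to 18 with a median of 11, and Zfp945 had the 18. Zfp949 had a KRAB match, 11 finger matches and 603 residues. Its identity to the other members ran from 15.2% to 55.0% of the shorter protein's residues, with a median of 43.4% over 29 proteins against 43.2% over all pairs of members, and the closest were Zfp931, Zfp930 and Zfp958 at 55.0%, 51.2% and 49.7%. The closest pair among all 435 was Zfp942 and Zfp944 at 79.8%.

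The members lie on 12 chromosomes, with 10 on chromosome 17. Zfp949, on chromosome 9, is 1 of 6 members that are alone on their chromosome. None of its 4227 exonic windows of 50 bases occurred in a transcript of another gene, and its exons overlapped no other gene. It was the 1 member with no shared window, though Zfp938 and Zfp948 shared only 2 and 3. Across members the share of such windows found in another gene had a median of 2.83%, and it passed 10% in 11 members. Counts of those 11 members could hold reads of their copies. Zfp935, with all of its windows in Gm49359 or other genes, and Zfp960, with 82.7% shared, are the most uncertain.

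Promoter sequences are shown for Zfp949, because the difference between labels was largest there, and for Zfp943, the most abundant member. Both are RefSeq sequences on GRCm38.p6, from 250 bases before to 50 bases after the annotated start, written 5′ to 3′ on the gene's strand with CpG dinucleotides in capitals. Zfp949 is at chr9:88547770-88548069 on the plus strand and Zfp943 at chr17:21962309-21962608 on the plus strand.
Zfp949: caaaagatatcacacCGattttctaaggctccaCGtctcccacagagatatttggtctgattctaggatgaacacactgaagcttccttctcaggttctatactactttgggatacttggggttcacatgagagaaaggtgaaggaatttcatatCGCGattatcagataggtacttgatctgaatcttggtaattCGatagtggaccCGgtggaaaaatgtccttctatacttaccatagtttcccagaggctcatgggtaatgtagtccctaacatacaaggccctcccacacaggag
Zfp943: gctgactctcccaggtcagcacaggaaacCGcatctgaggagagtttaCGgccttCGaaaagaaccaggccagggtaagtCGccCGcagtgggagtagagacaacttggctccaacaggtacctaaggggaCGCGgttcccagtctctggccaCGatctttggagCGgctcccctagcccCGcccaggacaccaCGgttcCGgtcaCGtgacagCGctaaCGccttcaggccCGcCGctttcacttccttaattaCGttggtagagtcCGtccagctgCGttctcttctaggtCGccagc

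The Zfp949 promoter held 6 CpG dinucleotides and 43.3% G or C, against 21 and 59.7% for Zfp943. The median of 32851 mouse promoters of the same length was 7 CpG and 52.7% G or C, so Zfp949 lay near the middle for CpG, with 47.9% of promoters at or below its count. The 34 promoters found for 28 of the members had medians of 9 and 53.7%. Short motifs were searched on both strands. CCAAT occurred in 24 of the 34 member promoters, from 18 genes, and in 37.4% of all promoters. GGGCGG, the GC box, occurred in 11 of the 34, from 10 genes with Zfp943 among them, and in 35.7% of all. TATAAA occurred in none of the 34 and in 13.6% of all. The YY1 core ATGGCGG occurred in 3 of the 34, from 2 genes, and in 4.05% of all. The ETS core CCGGAAG occurred in 9, from 5 genes, and in 8.86%. The cyclic AMP element TGACGTCA occurred in 1 of the 34 and in 1.79% of all, and the NRF1 core GCATGCGC in 0 and in 2.71%. None of these motifs was in the Zfp949 window. A match or its absence is a statement about letters only. Promoters of copied genes are not independent, and neither are overlapping promoters of the same gene, which were counted separately.

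Zfp949 (ENSMUSG00000032425) was counted 42, 41, 84 and 68 times across WT1 to WT4, and 104, 121, 144 and 124 times across KO1 to KO4. In CPM this was 15.4, 16.3, 30.02 and 24.8 in the libraries labelled WT and 38.3, 41.5, 51.2 and 44.2 in those labelled KO. Every library labelled KO lay above every library labelled WT, with KO3 highest and WT1 and WT2 lowest. The means were 21.6 ± 7.01 and 43.8 ± 5.50 CPM (SD, n = 4 each), a ratio of 2.02, and the fitted log2 difference was 1.01 ± 0.20 (SE). The lowest library labelled KO exceeded the highest labelled WT by 0.34 on the log2 scale. These are the values by which the gene was chosen.

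The authors' deposited table gives Zfp949 a log2 fold change of 1.01 with an adjusted p of 0.000796. It covers the contrast by which the gene was chosen, so this p-value is no support for the choice. That table lists 436 of 18022 genes, 2.42%, at an adjusted p under 0.05, and Zfp949 is the 1 gene of the 31 among them. In edgeR's quasi-likelihood test with Benjamini-Hochberg adjustment over 14556 genes, run on the deposited counts, 0 genes passed an adjusted p of 0.05, which is 0% of those tested. DESeq2 called 36 genes, 0.247%, and edgeR's likelihood ratio test called 34, 0.234%. Without adjustment, 653 genes or 4.49% had p under 0.05.

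**Figure D1:**
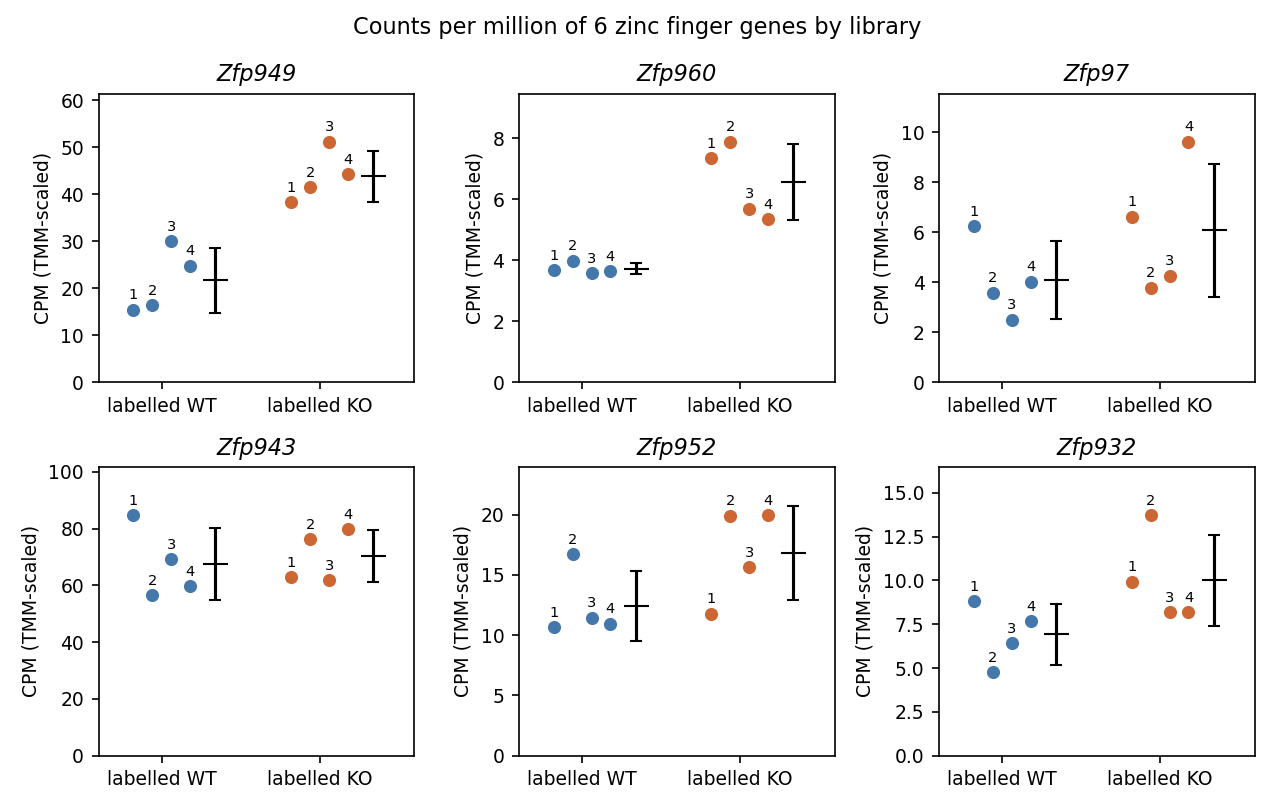
CPM (vertical axis) of Zfp949, Zfp960, its near copy Zfp97, Zfp943, Zfp952 and Zfp932, with 1 numbered point per library under its label and a bar for the mean ± SD of 4. For Zfp949 the 4 libraries labelled KO, from 38.3 to 51.2 CPM, lie above the 4 labelled WT, from 15.4 to 30.02, and Zfp960 is the other gene of the 6 without overlap.

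Zfp960 was the other tested member whose labels did not overlap. It had 10 reads in each of the 4 libraries labelled WT and 20, 23, 16 and 15 in KO1 to KO4. In CPM the values were 3.67, 3.98, 3.57 and 3.65 against 7.36, 7.90, 5.69 and 5.35. All libraries labelled KO were thus higher, at 6.57 ± 1.24 against 3.72 ± 0.179 CPM (SD, n = 4 each). The log2 difference was 0.82 ± 0.27 (SE), with a 95% interval from 0.24 to 1.39, and it did not pass the adjustment over all genes (edgeR, unadjusted p = 0.0087, adjusted p = 0.998). The authors' deposited table gives it a log2 fold change of 0.81 and an adjusted p of 0.472. Zfp960 shares 1907 of its 2344 exonic windows with Zfp97, so reads of these genes may be mixed. Zfp97 had 17, 9, 7 and 11 reads against 18, 11, 12 and 27, with overlapping labels and a log2 difference of 0.56 ± 0.37.

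Genes without overlap and higher in the libraries labelled KO made up 1.53% of the 14556 tested (223 genes), and genes lower without overlap 1.39% (202 genes). Among the 21 tested members other than Zfp949 there were 1 and 0. A log2 difference of at least 1 in favour of KO was found for 127 genes, 0.872% of those tested, and for 0 of these 21 members. No member of the 21 passed the adjusted threshold by edgeR's quasi-likelihood test, its likelihood ratio test or DESeq2. Zfp960 was the 1 member of the 21 with an unadjusted p under 0.05.

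**Figure D2:**
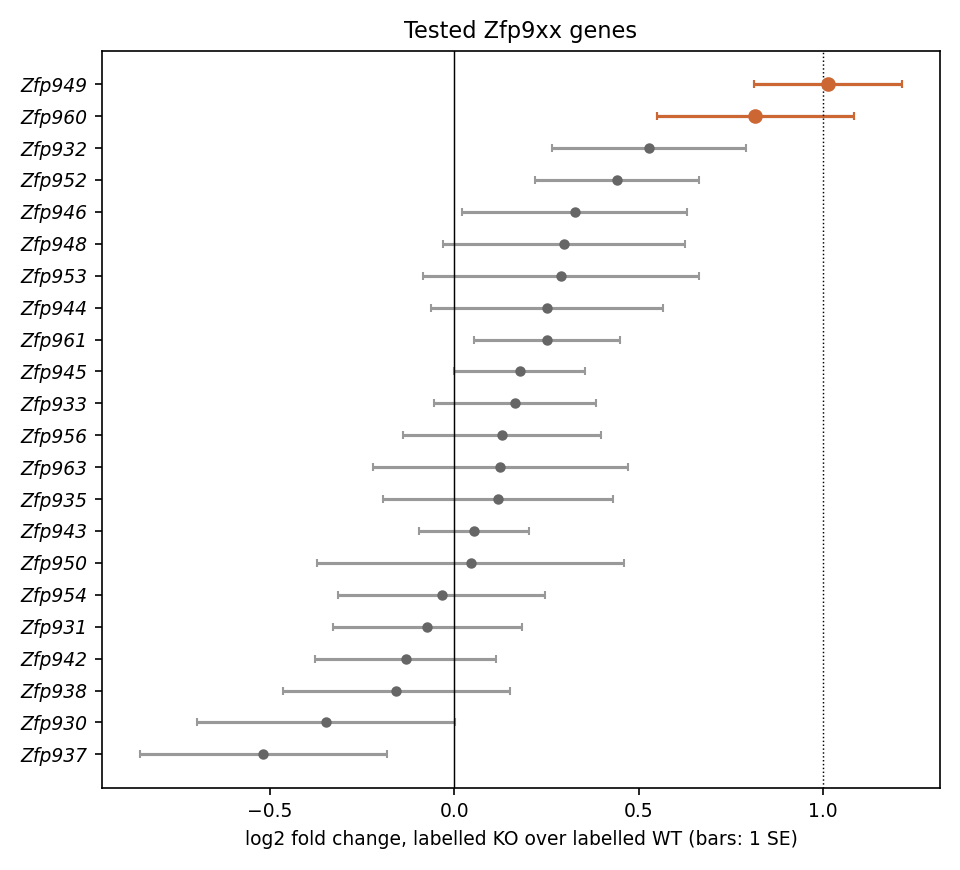
Log2 difference, label KO minus label WT, of the 22 tested members, with bars of 1 SE around each point, a solid line at no difference and a dotted line at 2-fold. Zfp949 is at 1.01 and Zfp960 at 0.82, and the other members lie between -0.52 and 0.53.

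The other members spread on both sides of no difference. The 21 log2 differences had a median of 0.13 and ran from -0.52 to 0.82, with 15 above 0 and 6 below, against a median of 0.00 over all tested genes. The count of 15 fell to 6 when the summed skeletal muscle markers were added to the fit as a covariate, and to 9 with KO3 as the only library labelled KO. The median was -0.17 and -0.04 under these settings, and 0.62 with 17 above 0 when the lymphoid marker sum was the covariate. For 15 of the 21 the 95% interval lay within 2-fold in both directions. It reached 2-fold higher for Zfp960, Zfp932, Zfp948 and Zfp953, and 2-fold lower for Zfp937 and Zfp930, so the intervals of these 6 include a change of that size.

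Zfp932 and Zfp952 followed Zfp960 in size. Zfp932 had 8.81, 4.78, 6.43 and 7.66 CPM in WT1 to WT4 and 9.93, 13.7, 8.18 and 8.20 in KO1 to KO4. Its labels overlapped and its difference was 0.53 ± 0.26, with an interval from -0.04 to 1.09, and 37.0% of its windows are shared, most of them with Gm15446. Zfp952 had 10.6, 16.7, 11.4 and 10.9 CPM against 11.8, 19.9, 15.7 and 19.97, a difference of 0.44 ± 0.22 with an interval from -0.04 to 0.92. WT2 was high for this gene and lay inside the range of the label KO. Zfp946 and Zfp948 completed the 5 most positive members, at 0.33 ± 0.31 and 0.30 ± 0.33. Without WT2 they were at 0.14 and 0.05, and without WT3 at 0.42 and 0.50. Leaving out KO2, KO3 or KO4 put Zfp946 at 0.19, 0.52 or 0.21, and leaving out KO1 or KO4 put Zfp948 at 0.47 or 0.11.

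At the other end was Zfp937, at 4.33 ± 1.29 CPM with the label WT and 3.03 ± 0.677 with the label KO (SD, n = 4 each). Its difference of -0.52 ± 0.33 had an interval from -1.24 to 0.20. Zfp930, Zfp938, Zfp942 and Zfp931 followed at -0.35 ± 0.35, -0.16 ± 0.31, -0.13 ± 0.25 and -0.07 ± 0.26. All had overlapping labels and an adjusted p of 0.998 in edgeR. Of the 3 proteins closest to Zfp949, Zfp931 and Zfp930 were thus below 0 and Zfp958 had too few reads to test. The tested members most variable within a label were Zfp950, Zfp948 and Zfp953, with SDs of 0.738, 0.613 and 0.572 on the log2 scale against 0.346 for Zfp949.

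The 9 members left out of the test had between 0 and 27 reads in a library. By SD of log2 CPM within a label, Zfp947 at 1.10 and Zfp940 at 0.99 were the most variable of them. Zfp940 was at 9, 6, 7 and 8 reads across WT1 to WT4 and 17, 2, 27 and 6 across KO1 to KO4. KO1 and KO3 were high for this gene while KO2 and KO4 were low, so the labels overlapped. Zfp947 had 0 reads in WT4 and Zfp964 had 0 in KO2. The remaining members of this group were Zfp934, Zfp939, Zfp951, Zfp957, Zfp958 and Zfp959.

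Per kilobase of exon, Zfp943 was the most abundant member and Zfp949 the next. Zfp943 had 84.8, 56.5, 69.3 and 59.8 CPM in the libraries labelled WT and 62.9, 76.2, 61.9 and 79.9 in those labelled KO, a difference of 0.05 ± 0.15 with an interval from -0.27 to 0.37. Its mean level per length was 14.4 CPM per kb. Zfp949 averaged 7.96 CPM per kb, made up of 5.27 ± 1.71 with the label WT and 10.7 ± 1.34 with the label KO. In the libraries labelled WT, Zfp949 ran from 3.75 to 7.31 CPM per kb and overlapped Zfp948, at 1.65 to 5.39, and Zfp938, at 2.06 to 5.69. In the libraries labelled KO, Zfp949 ran from 9.31 to 12.5, above Zfp948 at 2.91 to 6.59 and below Zfp943 at 12.9 to 16.7.

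**Figure D3:**
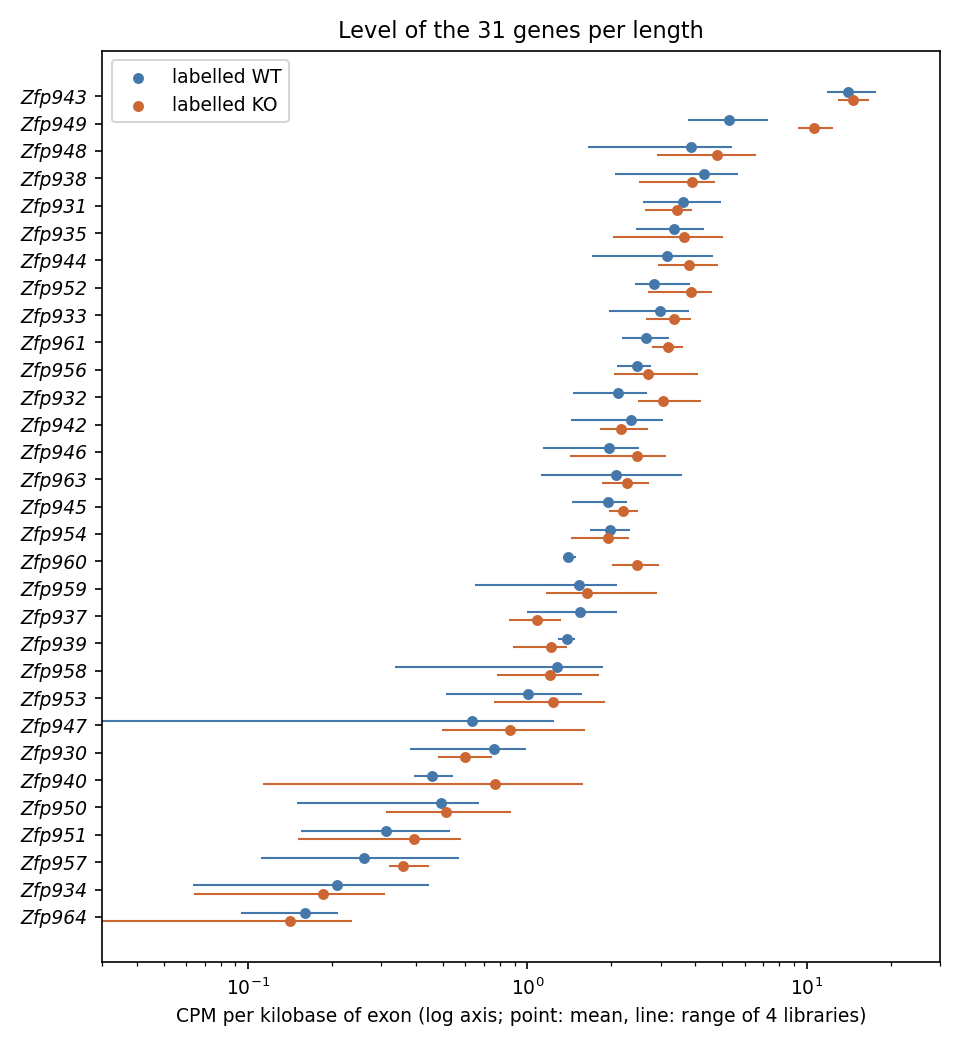
CPM per kilobase of exon of all 31 members on a log axis, with 1 point for the mean of each label and a line from its lowest to its highest library. Zfp943, at 14.4 CPM per kb over all libraries, and Zfp949, at 7.96, have the highest means. The WT line of Zfp949 overlaps those of several members. Lines that reach the left edge belong to genes with 0 reads in a library.

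As a share of the other 21 tested members' summed CPM, Zfp949 was 5.55%, 9.17%, 11.6% and 11.9% in WT1 to WT4. The share was 16.4%, 15.1%, 22.2% and 15.8% in KO1 to KO4. The ratio holds the counts by which Zfp949 was chosen and is given as a description.

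The same fit held 257 further tested entries with a numbered Zfp symbol that the pattern did not take, of 306 in the table. They include Zfp955a and Zfp955b, whose numbers carry a letter, at -0.03 and 0.49, and 2 entries of Zfp664 with equal counts. Their log2 differences had a median of 0.03 and ran from -0.77 to 0.79, with 143 above 0 and 114 below. None passed the adjusted threshold in edgeR's quasi-likelihood test and 7 had an unadjusted p under 0.05. The labels did not overlap for 3 higher and 2 lower genes. None reached 2-fold, so Zfp949 had the largest fitted difference of the numbered Zfp genes tested, in the contrast by which it was chosen.

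**Figure D4:**
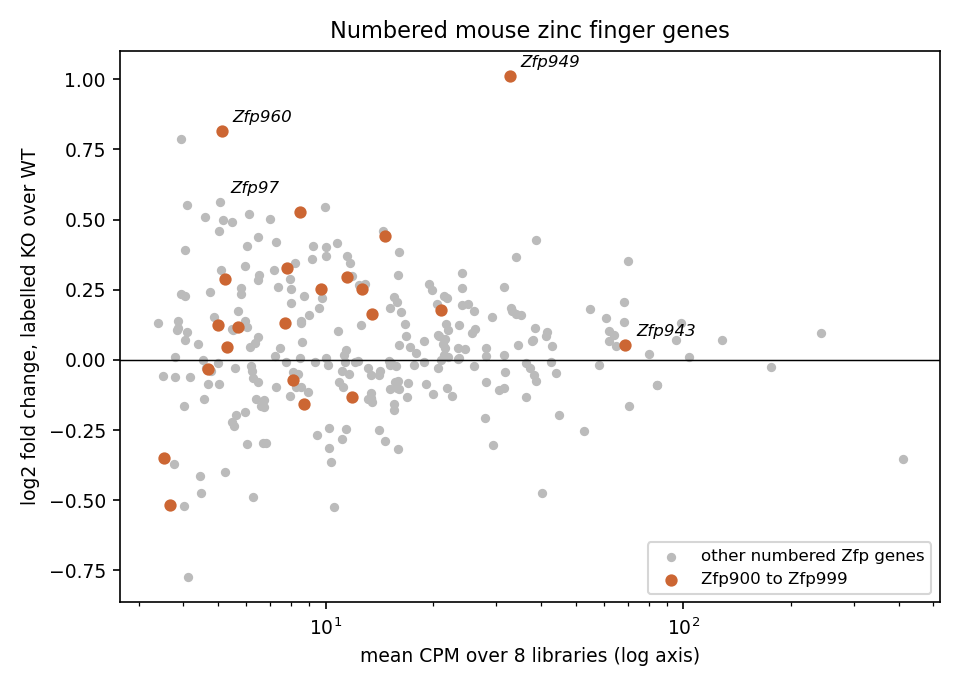
Log2 difference, label KO minus label WT, against mean CPM on a log axis for the tested genes with a numbered Zfp symbol, with the Zfp900 to Zfp999 genes in colour. Zfp949 lies at 1.01, above the range from -0.77 to 0.79 of the 257 other entries.

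The genes of the count table nearest to Zfp949 on chromosome 9 were compared in the same fit. On one side were Gm10163, Gm20537 and Syncrip, which encodes an RNA-binding protein, at -0.03 ± 0.22, -0.12 ± 0.14 and -0.19 ± 0.14. On the other side were a gene without a symbol in the table, Trim43c and Gm2382, at -0.01 ± 0.28, -0.63 ± 0.37 and -0.44 ± 0.28. GENCODE M21, which gave the gene order, names Trim43c and Gm2382 as Trim43a and Mthfsl. All 6 had overlapping labels, and edgeR gave each an adjusted p of 0.998.

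The corepressors and chromatin proteins that KRAB proteins use, with the KRAB zinc finger genes Zfp809, Rbak and Zfp57, were examined as a list of 34 genes, of which 30 were tested. Their log2 differences had a median of 0.02 and ran from -0.18 to 0.43, where Zfp809 was the highest and Hdac2 next at 0.17, with 20 above 0 and 10 below. None passed the adjusted threshold and none had labels without overlap. Trim28, the corepressor itself, was at 48.8 ± 8.05 and 46.4 ± 3.30 CPM (SD, n = 4 each), a difference of -0.07 ± 0.14. Setdb1, the methyltransferase it recruits, had a difference of 0.01 ± 0.17. Atf7ip, a partner of Setdb1, was at 0.02 ± 0.12, and Cbx5, which encodes the heterochromatin protein HP1 alpha, at -0.06 ± 0.12. The 4 smallest p-values belonged to Zfp809, Yy1, Ehmt1 and Morc2a, at 0.43 ± 0.19, 0.14 ± 0.11, 0.14 ± 0.12 and -0.13 ± 0.13. Zfp809, a KRAB zinc finger protein known for silencing retroviral DNA, had an unadjusted p of 0.0382 and an adjusted p of 0.998 in edgeR.

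Marker lists of other cells were also compared between the labels. The skeletal muscle list had 24 of 26 genes in the table, all with a positive difference (median 2.83), and summed to between 475.3 and 941.4 CPM with the label WT. The sums were 3782, 2327, 787.6 and 4063 CPM in KO1 to KO4. Mylpf, Pvalb, Cacna1s, Myoz1 and Tcap had 0 reads in WT4. Zfp949 was highest in KO3, whose muscle sum lay within the range of the label WT. Tnnc1, at means of 276.7 and 301.6 CPM with the labels WT and KO, made up a large part of the low sums. Myh1, Myh2, Mb and Eno3 were higher in every library labelled KO, KO3 included, than in any labelled WT. The labels of the other muscle markers overlapped. Myh1 had 74 reads in KO3 against 21, 11, 47 and 2 in WT1 to WT4. The log2 difference of Zfp949 was 1.24 with KO3 as the only library labelled KO, and 1.13 with the muscle sum as a covariate. Keeping only KO3, the highest library for Zfp949, had to raise the difference. The part of muscle in the level of Zfp949 was not tested.

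The lymphoid list had 12 of 13 genes in the table, 2 of them tested, and summed to between 78.8 and 145 CPM with the label WT and between 53.3 and 71.7 with the label KO, without overlap. The B cell marker Ms4a1 had 0 reads in KO1. Ighm, the immunoglobulin mu heavy chain gene, made up between 69.5% and 84.6% of the sum in each library. Without Ighm the sums ran from 18.6 to 30.25 CPM with the label WT and from 14.2 to 18.9 with the label KO. They overlapped only in that KO2, at 18.9, lay above WT4, at 18.6. With the whole sum as a covariate, a setting added after the values were seen, the log2 difference of Zfp949 was 0.66, the median of the other 21 members was 0.62, and 8 of the 21 were above Zfp949, Zfp948 at 1.17 and Zfp946 at 1.14 among them. With the sum without Ighm, also added later, Zfp949 was at 0.86, the median of the 21 was 0.09, and Zfp960, at 1.11, was the 1 member above it. Liver markers summed to between 1379 and 3102 CPM against 1079 to 1795, and macrophage markers to between 832.1 and 1232 against 871.8 to 1093, both overlapping. Of the 10 tested liver markers 9 were below 0, among them Hp, the haptoglobin gene, at -0.39. Cyp2e1 was the 1 above 0, at 0.63, and the median was -1.79. Hp made up a large part of the liver sums, at means of 1270 and 966.7 CPM with the labels WT and KO. Reads of Alb, the albumin gene, were 2698, 203, 158 and 2105 in WT1 to WT4. In KO1 to KO4 they were 184, 904, 436 and 124, so Alb varied within both labels. Of 12 mammary epithelium markers 2 were in the table, and Cdh1, the E-cadherin gene, had 9, 23, 3 and 6 reads against 0, 1, 1 and 0. The part of the lymphoid, liver, macrophage and mammary lists in the level of Zfp949 was not tested. The whole lymphoid sum did not overlap between the labels, so its part and that of the label cannot be told apart. The sum without Ighm overlapped only by KO2 and WT4, so its part can hardly be told from that of the label either.

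**Figure D5:**
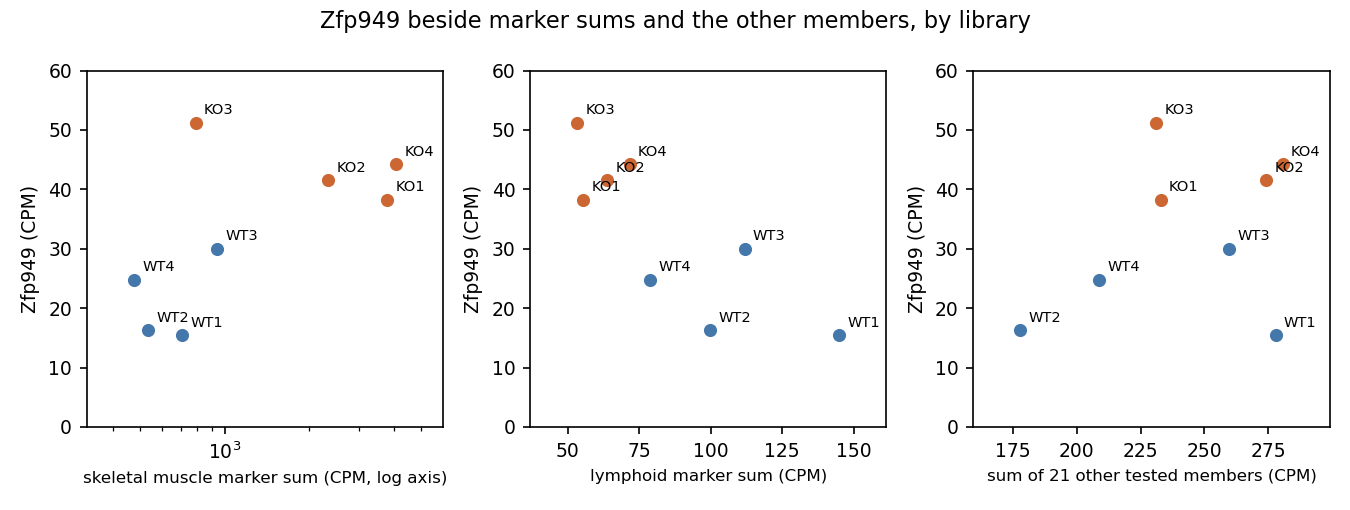
CPM of Zfp949 (vertical axis) against the summed CPM of skeletal muscle markers (log axis), of lymphoid markers and of the other 21 tested members, with 1 point per library. Zfp949 is highest in KO3, at 51.2 CPM, where the muscle sum of 787.6 CPM lies within the range of the label WT. Taken singly, the muscle markers Myh1, Myh2, Mb and Eno3 are higher in KO3 than in every library labelled WT.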

How the data were processed

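Libraries were prepared from poly(A)-selected RNA without strand marking, by the kit named in the labels' protocols. FastQC, Bowtie2, edgeR and the build mm9 appear in the submitters' processing notes, with the counting program and annotation not given in the sources used here. Raw counts for each gene were deposited by the authors, with a second table of log2 fold changes, log2 CPM and p-values. The members and gene lists were chosen with earlier results of these data known.

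The counts were tested in R 4.3.3 with edgeR 4.0.16 (limma 3.58.1): filterByExpr, TMM scaling, robust quasi-likelihood fit, label as the only term, Benjamini-Hochberg adjustment over 14556 genes at 0.05. DESeq2 1.42.0 and the other settings of the closing section were alternatives, and the code was tested on simulated data. Described members were Zfp949, the most abundant, most positive, most negative and most variable ones, any without overlap between labels, and the 3 nearest Zfp949 in protein sequence. GENCODE M21 supplied gene order, exon lengths, translated proteins and shared windows; 16975 table identifiers were found in it, and 3 members were matched by symbol. Its build differs from mm9, so it gave no coordinates. Identity is matched residues over the shorter protein. P-values set the difference between labels against the spread between mice of the same label, which edgeR estimates with information shared across genes. No libraries of a label were copies of each other.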

Additional observations from a re-analysis of the deposited data

Results flagged for a closer look

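Zfp952 in WT2, at 16.7 CPM, lay far from the other libraries labelled WT, which were between 10.6 and 11.4 CPM. The gap to the nearest library was 0.869 of the range of that label, above Dixon's critical value at the 95% level. Of 52 groups of 4 libraries examined, this was the 1 that passed, and chance alone flags about 1 in 20 groups.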

How the results depend on the processing

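The log2 difference of Zfp949 stayed positive under 22 alternatives, between 0.66 with the lymphoid covariate and 1.24, and between 0.88 and 1.21 with each library left out in turn. Zfp949 was chosen by this difference and its labels did not overlap, so leaving out a library could hardly turn the sign. These values are a description. The other members and the corepressor genes past the adjusted threshold numbered 0 under each of 21 alternatives. Over all tested genes, 0 passed in edgeR's quasi-likelihood test, 36 in DESeq2 and 34 in the likelihood ratio test; leaving out each library gave 0 to 50, with 50 without KO3. The positive members, 15 of 21, became 6 with the muscle covariate and 9 with KO3 as the only library labelled KO, and ran from 12 to 18 with each library left out. With the muscle covariate, Zfp943, Zfp945, Zfp946, Zfp948 and Zfp950 turned to -0.19, -0.046, -0.48, -0.079 and -0.60. With KO3 alone, Zfp943, Zfp946 and Zfp950 turned to -0.13, -0.47 and -0.30. With the lymphoid covariate, added after seeing the data, Zfp931, Zfp938 and Zfp942 turned to 0.69, 0.66 and 0.50, and the median of the 21 members was 0.62. With that sum without Ighm, also added later, Zfp933, Zfp950 and Zfp953 turned to -0.16, -0.60 and -0.50. Leaving out each library moved Zfp931 between -0.20 and 0.12, Zfp938 between -0.38 and 0.0043, Zfp942 between -0.30 and 0.020, Zfp943 between -0.022 and 0.18, and Zfp950 between -0.34 and 0.24. The cause was not tested.

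Libraries with the same replicate number did not deviate together, with correlations of -0.14, -0.286, -0.201 and -0.272, and none correlated best with its own number. With the replicate block, 0 genes passed and Zfp949 was at 1.05.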

Other observations

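WT2 was the lowest of the 8 libraries for 12 of the 21 tested members other than Zfp949, 57.1%, against 77 of 257 other numbered Zfp entries, 30%, and 2676 of all 14556 tested genes, 18.4%. The summed CPM of the 21 members was 277.9, 177.9, 259.8 and 208.7 in WT1 to WT4 and 232.9, 274.3, 231.1 and 280.6 in KO1 to KO4. Without WT2, the median log2 difference of the 21 members was 0.05 in place of 0.13. Of the 8 tested members on chromosome 17, WT2 was lowest in 5, and of the 13 elsewhere in 7.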
